A study of Mus musculus with 3 samples.

Results

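The 8 receptor genes described here are the type I receptors *Acvr1* (ALK2), *Bmpr1a* (ALK3), *Bmpr1b* (ALK6) and *Acvrl1* (ALK1), the type II receptors *Bmpr2*, *Acvr2a* and *Acvr2b*, and the co-receptor *Eng* (endoglin). They were taken by gene symbol and are 8 of the 32285 genes in the count tables. Their UMIs (unique molecular identifiers, each standing for 1 captured transcript) were read in cells of at least 2000 UMIs with at most 10% mitochondrial UMIs. The cells came from the inguinal stromal vascular fraction (SVF) of 4-week-old mice, sorted as live and CD45-negative, as 1 library each from wild-type mice (12 pooled), *Mgp*-KO mice (13 pooled) and *Pd*-KO mice (11 pooled). MGP (matrix Gla protein) is a secreted BMP inhibitor. *Mgp*-KO mice lack it in every cell, whereas *Pd*-KO mice carry floxed *Mgp* alleles and a *Pdgfra*-Cre transgene, so that deletion is directed to *Pdgfra*-expressing cells and their progeny. No library of floxed mice without Cre was analysed here, and no genotype has a second library.

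BMPs, activins and GDFs signal through a complex of type II receptors, which bind ligand and phosphorylate type I receptors, and type I receptors, which then phosphorylate SMADs. ALK1, ALK2, ALK3 and ALK6 are the type I receptors that activate the BMP-responsive SMADs, with ALK1 and its co-receptor endoglin known for binding BMP9 and BMP10 in endothelium and ALK3 for commitment of mesenchymal cells to the adipocyte lineage. BMPR2 is largely a BMP receptor, whereas ACVR2A and ACVR2B also bind activins and myostatin, so the receptors that a cell carries set the ligands it can answer.

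Cell types were gated by marker genes, none of them a receptor, among the kept cells, 10511 from wild-type, 12575 from *Mgp*-KO and 8819 from *Pd*-KO mice. Values follow this order of libraries throughout. The gates held 7442, 10951 and 6788 progenitor cells (*Pdgfra*, *Dcn*, *Lum*), 774, 227 and 679 endothelial cells (*Pecam1*, *Cdh5*, *Cldn5*), 683, 130 and 168 smooth muscle cells (*Myh11*, *Acta2*), 230, 41 and 309 pericytes (*Rgs5*, *Kcnj8*), 302, 545 and 112 luminal epithelial cells (*Epcam*, *Krt8*), and 207, 33 and 30 early adipocytes (*Adipoq*, *Plin1*). Median depth was 12802, 6445 and 8269 UMIs per cell, and 72 to 77 cells of each library shared a barcode with a cell of another library. *Mgp* itself was read at 511, 1.92 and 1.00 CPM (UMIs per 1000000 UMIs of the gate) in progenitor cells and at 675, 0 and 49.9 in endothelial cells. Pericytes of the *Pd*-KO library held 677 against 768 in wild-type, so *Mgp* was near 0 in progenitor cells of both knockout libraries and was still read in *Pd*-KO pericytes. The wild-type count file names Cell Ranger version 4 and both knockout files version 7.1.0. A difference of either knockout library from wild-type and one between processing versions therefore cannot be told apart.

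Gene starts are shown for *Eng*, *Bmpr1b* and *Acvr2a*, since the results below turn on their levels in endothelial cells, mural cells and progenitor subsets. Each run holds the 250 bases before an annotated start (RefSeq, GRCm38.p6), 5′ to 3′ on the gene's own strand, with no annotated exon in it. Capitals mark GGAA, the core of ETS factor motifs, or TTCC where it lies on the other strand. *Eng* lies on chr2:32646345-32646594 (plus strand), *Bmpr1b* on chr3:141982265-141982514 (minus strand, 1 of 3 starts listed for the gene) and *Acvr2a* on chr2:48813859-48814108 (plus strand).
Eng: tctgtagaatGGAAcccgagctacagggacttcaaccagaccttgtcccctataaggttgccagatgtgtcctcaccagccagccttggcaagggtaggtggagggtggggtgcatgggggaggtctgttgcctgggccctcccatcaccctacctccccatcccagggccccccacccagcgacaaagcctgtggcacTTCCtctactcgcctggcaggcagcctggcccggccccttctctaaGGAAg
Bmpr1b: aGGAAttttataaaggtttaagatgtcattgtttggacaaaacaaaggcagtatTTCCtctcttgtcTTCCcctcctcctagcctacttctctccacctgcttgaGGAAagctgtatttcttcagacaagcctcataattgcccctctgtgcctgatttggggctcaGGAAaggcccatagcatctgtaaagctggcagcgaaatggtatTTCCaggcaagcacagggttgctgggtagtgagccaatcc
Acvr2a: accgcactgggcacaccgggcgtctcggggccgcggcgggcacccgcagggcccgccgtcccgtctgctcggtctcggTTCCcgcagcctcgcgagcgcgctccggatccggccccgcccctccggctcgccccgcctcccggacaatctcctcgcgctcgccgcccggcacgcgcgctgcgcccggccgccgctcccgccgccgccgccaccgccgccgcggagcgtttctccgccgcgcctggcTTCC
The *Eng* run holds 3 such cores, which 54.7% of the 32851 starts in the table matched or exceeded. That of *Bmpr1b* holds 6 (8.69% of starts held as many), whereas the windows before the other 2 *Bmpr1b* starts hold 0 and 3, and the start shown lies inside the span of the gene in the annotation (chr3:141837136-142169425). The run of *Acvr2a* holds 2 (76.8%). At least 1 core stood before 93.4% of all starts, so the letters are common. Of the 8 receptor genes, 7 were found in the table.

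Levels are in CPM, the UMIs of a gene per 1000000 UMIs of the gated type. As 3′ UMIs, which are not scaled by length, they were compared for 1 gene across types and not between genes. Each type was set against progenitor cells with edgeR's quasi-likelihood test on UMI sums, with the library as a block and Benjamini-Hochberg adjustment over 13099 genes. Each ± value is an approximate SE, the size of the log2 difference divided by the square root of the test's F statistic. The 3 libraries repeat each comparison, but they differ in genotype and each pools its mice, so the p-values measure the spread between these libraries only. Scaling by total UMIs instead of TMM moved the median log2 difference of all genes from -0.05 to 0.23 in endothelial cells, from -0.05 to 0.38 in pericytes and from -0.05 to 0.19 in smooth muscle cells. The receptor calls below held under it unless stated, and calls of other genes were not set against it.

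The endothelial cells carried a receptor set unlike that of progenitor cells: much *Eng*, more *Acvrl1* and hardly any *Bmpr1a*. *Eng* stood at 494 (exact 95% Poisson interval 476 to 512), 509 (463 to 559) and 654 (626 to 683) CPM in endothelial cells and at 26.4, 22.7 and 32.5 in progenitor cells. The groups did not overlap, and *Eng* was higher in endothelial cells by 4.07 ± 0.18 on the log2 scale (SE, edgeR adjusted p = 1.13e-11). In early adipocytes it stood at 7.52, 10.7 and 16.7. The endothelial gate also held summed progenitor markers at 1710, 797 and 643 CPM, against 29531, 26134 and 35351 in progenitor cells.

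*Acvrl1*, the type I partner of endoglin, was at 114, 156 and 138 CPM in endothelial cells against 46.3, 38.8 and 51.8 in progenitor cells (log2 difference 1.29 ± 0.20, edgeR adjusted p = 3.76e-05). Every endothelial value was above every progenitor value. After endothelial and progenitor cells came pericytes (22.0, 24.2 and 30.4) and smooth muscle cells (21.7, 12.03 and 19.5), with only 4 and 6 UMIs behind the *Mgp*-KO values. Luminal cells (8.57, 4.87 and 6.99) and early adipocytes (10.0, 4.28 and 21.4) held less in the wild-type and *Mgp*-KO libraries, while in *Pd*-KO early adipocytes lay above smooth muscle cells. Against progenitor cells *Acvrl1* was lower in each of these 4 types, by 1.31 ± 0.26 (log2 -1.31, adjusted p = 0.000624) in pericytes to 2.88 ± 0.25 (log2 -2.88, adjusted p = 2.05e-08) in luminal cells in edgeR's test.

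For *Bmpr1a*, the type I receptor of BMP2 and BMP4, endothelial cells held 6.93, 12.6 and 4.16 CPM, from 39, 11 and 13 UMIs. Progenitor cells held 57.5, 98.2 and 115, a log2 difference of -3.83 ± 0.30 (edgeR adjusted p = 1.38e-08), which ran from -4.40 to -3.27 when 1 library was left out. The other types were not called apart from progenitor cells, as luminal cells held 54.0, 125 and 154, pericytes 81.1, 169 and 168, smooth muscle cells 78.0, 128 and 198 and early adipocytes 43.7, 55.6 and 110. Free RNA, read from barcodes of 10 to 100 UMIs, carried *Bmpr1a* at 64.4, 67.1 and 101, above the level in endothelial cells.

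Among the 6 types tested *Acvr1*, which encodes ALK2, was lowest in early adipocytes in every library. Its level was 18.5, 40.8 and 55.4 in progenitor cells and 22.0, 35.6 and 50.9 in endothelial cells, with neither type higher in every library (log2 difference -0.27 ± 0.21, edgeR adjusted p = 0.305). Smooth muscle cells (11.2, 24.1 and 34.5) were lower in each library by 0.97 ± 0.25 (log2 -0.97, adjusted p = 0.00431 with edgeR). That call was lost among cells of at least 5000 UMIs (-0.64, adjusted p = 0.151) and without the library block (-1.07, adjusted p = 0.138). Pericytes were lower by 1.16 ± 0.27 (log2 -1.16, edgeR adjusted p = 0.00228), a call lost without the *Pd*-KO library (-1.07, adjusted p = 0.0878) and without the library block (-1.27, adjusted p = 0.0901). Early adipocytes held 8.30, 8.56 and 11.9, lower by 1.45 ± 0.28 (log2 -1.45, edgeR adjusted p = 0.000443).

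*Bmpr1b* was highest in the mural cells, pericytes and smooth muscle cells. Pericytes held 5.03, 18.1 and 73.1 CPM from 8, 3 and 106 UMIs, and smooth muscle cells 3.11, 8.02 and 30.0 from 15, 4 and 20 UMIs. In progenitor cells the level was 0.129, 0.813 and 0.925. Within each library both mural types were above progenitor cells, by 5.10 ± 0.43 (pericytes, edgeR adjusted p = 1.85e-07) and 4.14 ± 0.43 (smooth muscle cells, adjusted p = 1.22e-06) on the log2 scale. Pericytes also carried smooth muscle markers, at a summed 8625, 2159 and 3943 CPM against 29524, 38707 and 28925 in smooth muscle cells, and the part of these in the *Bmpr1b* level was not tested. The gene was at 0 UMIs in endothelial cells of the wild-type and *Mgp*-KO libraries, which allows up to 0.533 and 3.44 CPM, and at 3 UMIs in *Pd*-KO. All 3 libraries had 0 UMIs in early adipocytes, which allows up to 0.470, 6.42 and 7.15. In luminal cells it rested on 2, 11 and 5 UMIs, and the call there (1.34 ± 0.48, edgeR adjusted p = 0.0236) was lost when any library was left out (adjusted p = 0.0519 without wild-type, 0.0855 without *Mgp*-KO and 0.164 without *Pd*-KO), as it was without the library block (adjusted p = 0.436).

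Among the type II receptors, *Bmpr2* was present in every type. Endothelial cells held 193, 181 and 259 CPM against 76.5, 128 and 143 in progenitor cells, and each library had more in endothelial cells. The log2 difference of 0.62 ± 0.21 (edgeR adjusted p = 0.0184) was lost without the wild-type library (0.41, adjusted p = 0.139), without the *Pd*-KO library (0.68, adjusted p = 0.0702) and without the library block (0.60, adjusted p = 0.144). Smooth muscle cells (95.8, 80.2 and 126) and pericytes (101, 84.7 and 149) were not called apart from progenitor cells, although smooth muscle cells were called lower without the wild-type library (-0.70, adjusted p = 0.0368). Luminal cells (39.99, 66.7 and 110) were lower by 0.98 ± 0.21 (log2 -0.98, adjusted p = 0.000640) and early adipocytes (34.5, 72.7 and 50.04) by 1.15 ± 0.24 (log2 -1.15, adjusted p = 0.000874).

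Among the 6 types tested *Acvr2a*, an activin receptor, was highest in progenitor cells in all 3 libraries, at 52.4, 73.2 and 109 CPM. Endothelial cells (29.8, 65.4 and 87.7) were lower by 0.72 ± 0.15 (log2 -0.72, edgeR adjusted p = 0.000575), a call lost without the library block (-0.66, adjusted p = 0.220). Early adipocytes held 23.96, 44.9 and 71.5 (log2 -0.81 ± 0.16, adjusted p = 0.000786), a call also lost without the block (-0.83, adjusted p = 0.153). Pericytes (17.0, 18.1 and 34.5), smooth muscle cells (15.3, 30.1 and 42.0) and luminal cells (7.71, 14.0 and 17.9) were further down, by log2 differences of -2.08 ± 0.19, -1.75 ± 0.17 and -2.78 ± 0.16 (largest edgeR adjusted p = 2.59e-07). *Acvr2b* was sparse in each of these types, and among them progenitor cells held the least in each library (2.42, 2.53 and 2.59). Endothelial cells held 8.17, 6.88 and 10.9, smooth muscle cells 11.6, 10.02 and 11.99 and pericytes 11.9, 12.1 and 13.8, higher by 1.53 ± 0.23, 1.97 ± 0.25 and 1.89 ± 0.26 on the log2 scale (largest edgeR adjusted p = 1.90e-05). The *Mgp*-KO values rest on 6, 5 and 2 UMIs.

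Besides endothelial cells, *Eng* was called higher in pericytes (62.2, 48.4 and 91.1, log2 difference 0.89 ± 0.19, edgeR adjusted p = 0.000949) and lower in early adipocytes (-1.44 ± 0.24, adjusted p = 0.000133). Smooth muscle cells (29.4, 20.0 and 62.9) and luminal cells (30.0, 24.4 and 37.3) were not called apart from progenitor cells, and the sign of each difference turned with the setting.

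**Figure D1:**
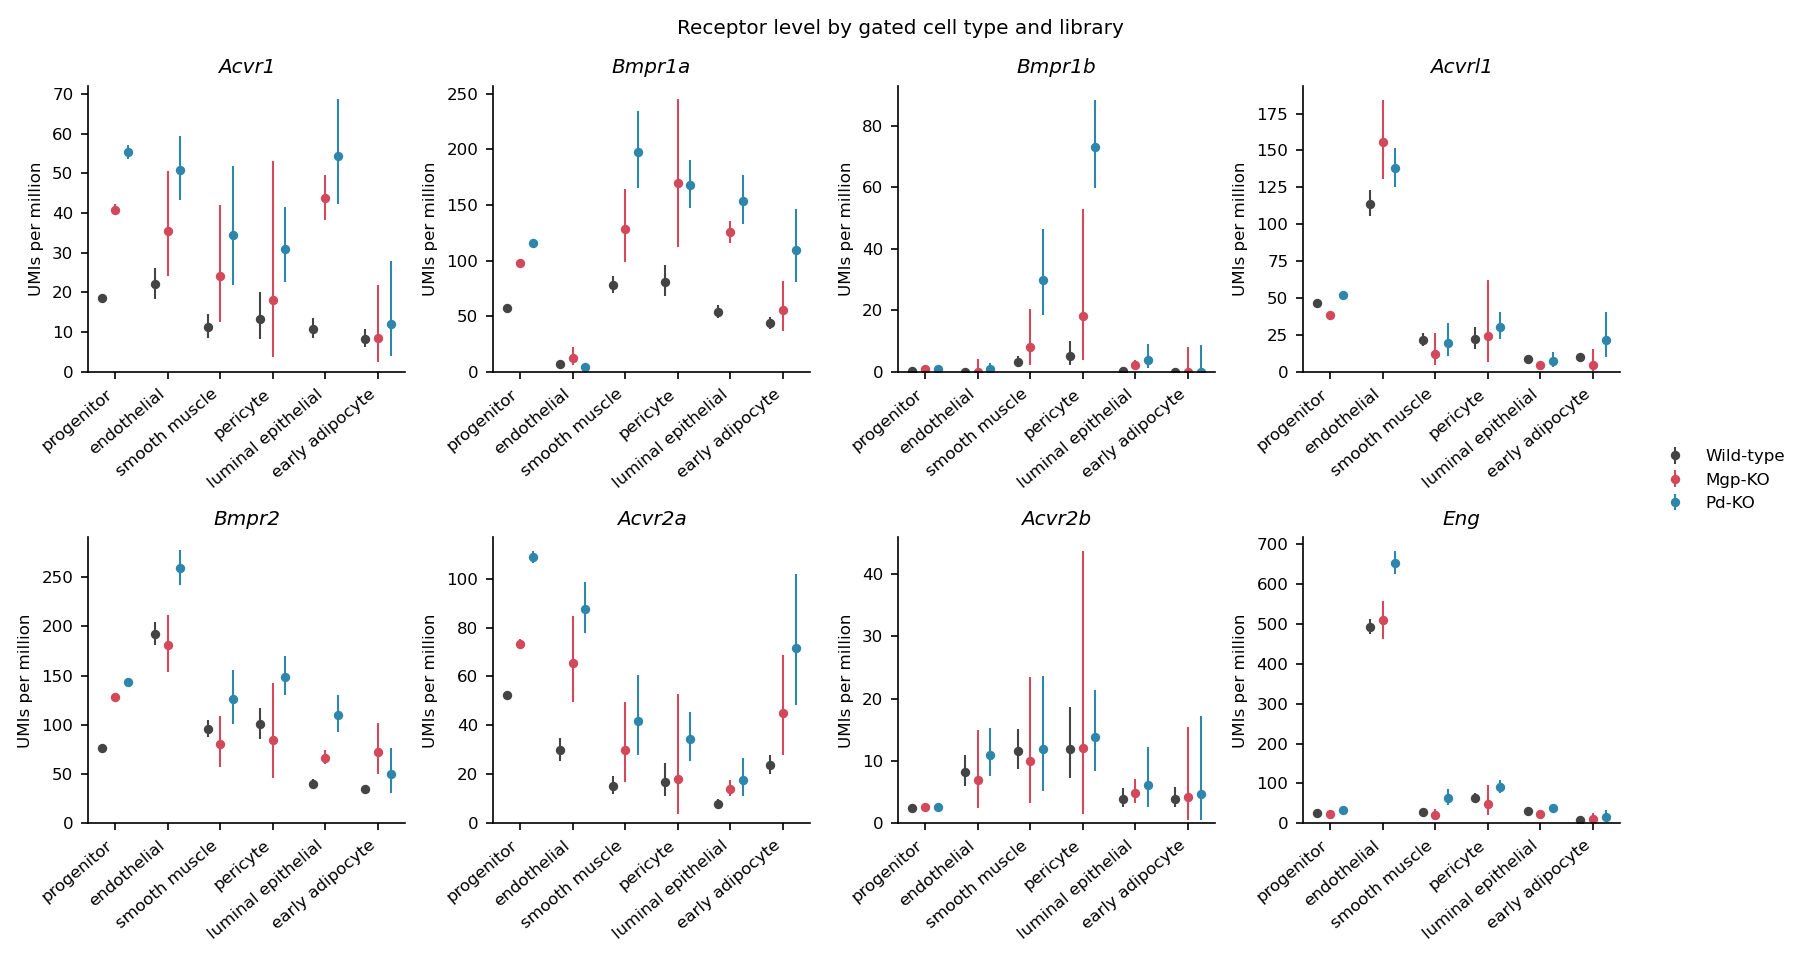
Level of each receptor (y axis, CPM on a linear axis) in 6 gated cell types (x axis) of the 3 libraries, with 1 point per library and bars for the exact 95% Poisson interval. *Eng* and *Acvrl1* stand highest in endothelial cells, *Bmpr1a* is lowest there, and *Bmpr1b* reaches 73.1 in *Pd*-KO pericytes.

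In all, 6 receptors were called in endothelial cells, 4 higher and 2 lower, where 22.6% of all genes tested were called higher and 26.8% lower. In smooth muscle cells 2 were higher and 3 lower (18.7% and 22.6% of all genes), and in pericytes 3 and 3 (16.0% and 21.0%). Luminal cells had 2 higher and 3 lower (29.2% and 32.2%). Early adipocytes had 1 higher and 5 lower (21.3% and 21.0%), although these cells also carried progenitor markers, at a summed 7568, 5539 and 10835 CPM against 29531, 26134 and 35351 in progenitor cells, whose part in their receptor levels was not tested. The *Acvr2b* calls of luminal cells (0.72, edgeR adjusted p = 0.0118) and early adipocytes (0.82, adjusted p = 0.0347) were lost when any library was left out, with values of 0.82, 0.72 and 0.64 in luminal cells and of 0.59, 0.74 and 0.64 in early adipocytes when the wild-type, then the *Mgp*-KO, then the *Pd*-KO library was left out. The early adipocyte call was lost under total-UMI scaling too (0.75, adjusted p = 0.0553).

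Progenitor cells were further gated into 4 subsets: the Dpp4 subset (*Dpp4*, *Pi16*), the Icam1 subset (*Icam1*, *Pparg*), the Areg subset (*F3*, *Gdf10*) and the Col18a1 subset (*Col18a1*, *Sdc1*). They held 1932, 4291 and 4058 cells, 1953, 1036 and 439 cells, 666, 515 and 354 cells, and 311, 622 and 284 cells. Progenitor cells that passed none or more than 1 of these gates were in no subset, so subset values cover only part of the 7442, 10951 and 6788 progenitor cells. From 15.8% to 21.5% of the Col18a1 cells lay near the cut. Each subset was compared with the mean of the other subsets over 13181 genes. *Bmpr1b* was too low for this test.

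*Acvr2a* divided the progenitor subsets. The Icam1 subset held 78.0, 128 and 286 CPM and the Areg subset 84.9, 147 and 292. The Dpp4 subset held 20.6, 46.9 and 47.4, below both in every library. Log2 differences were 1.07 ± 0.20 in the Icam1 subset (edgeR adjusted p = 0.00321), 1.23 ± 0.20 in the Areg subset (adjusted p = 0.00140) and -1.43 ± 0.22 in the Dpp4 subset (adjusted p = 0.000628). The Col18a1 subset spread more widely, at 25.1, 49.9 and 158. Its call (-0.87 ± 0.23, edgeR adjusted p = 0.0131) was lost under a stricter gate (-0.02, adjusted p = 0.969), without the wild-type library (-0.71, adjusted p = 0.119) and without the *Mgp*-KO library (-0.66, adjusted p = 0.111).

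*Eng* and *Acvrl1* were both highest in the Areg subset and lowest in the Col18a1 subset in every library. *Eng* stood at 49.5, 35.6 and 52.6 in the Areg subset (log2 1.14 ± 0.11, edgeR adjusted p = 3.56e-06) and at 14.3, 12.97 and 14.3 in the Col18a1 subset (-1.44 ± 0.13, adjusted p = 1.38e-06). *Acvrl1* stood at 69.1, 61.6 and 64.6 against 32.2, 25.04 and 42.1 (0.73 ± 0.10, adjusted p = 9.72e-05, and -0.94 ± 0.11, adjusted p = 1.87e-05). Among the subsets *Bmpr1b* was also highest in Areg, at 1.14, 10.5 and 17.4 from 8, 27 and 42 UMIs, whereas 5 UMIs at most stood in the Dpp4 subset of any library and 6 at most in the Icam1 or Col18a1 subsets. All progenitor cells held 14, 63 and 60 UMIs, so some of them lay in cells of no single subset.

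*Bmpr1a* was called in none of the 4 subsets. Its levels were 62.8, 96.6 and 116 in the Dpp4 subset, 54.5, 92.2 and 103 in the Icam1 subset, 72.8, 89.8 and 132 in the Areg subset and 48.7, 113 and 129 in the Col18a1 subset. *Bmpr2* was not called either, with levels from 64.9 to 86.8 in wild-type, 110 to 149 in *Mgp*-KO and 122 to 174 in *Pd*-KO over the 4 subsets. Under the stricter gate *Bmpr1a* was called lower in the Icam1 subset (-0.40, adjusted p = 0.0454). *Acvr1* was called lower in the Icam1 subset (14.4, 33.6 and 42.6, log2 -0.43 ± 0.09, edgeR adjusted p = 0.00185).

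**Figure D2:**
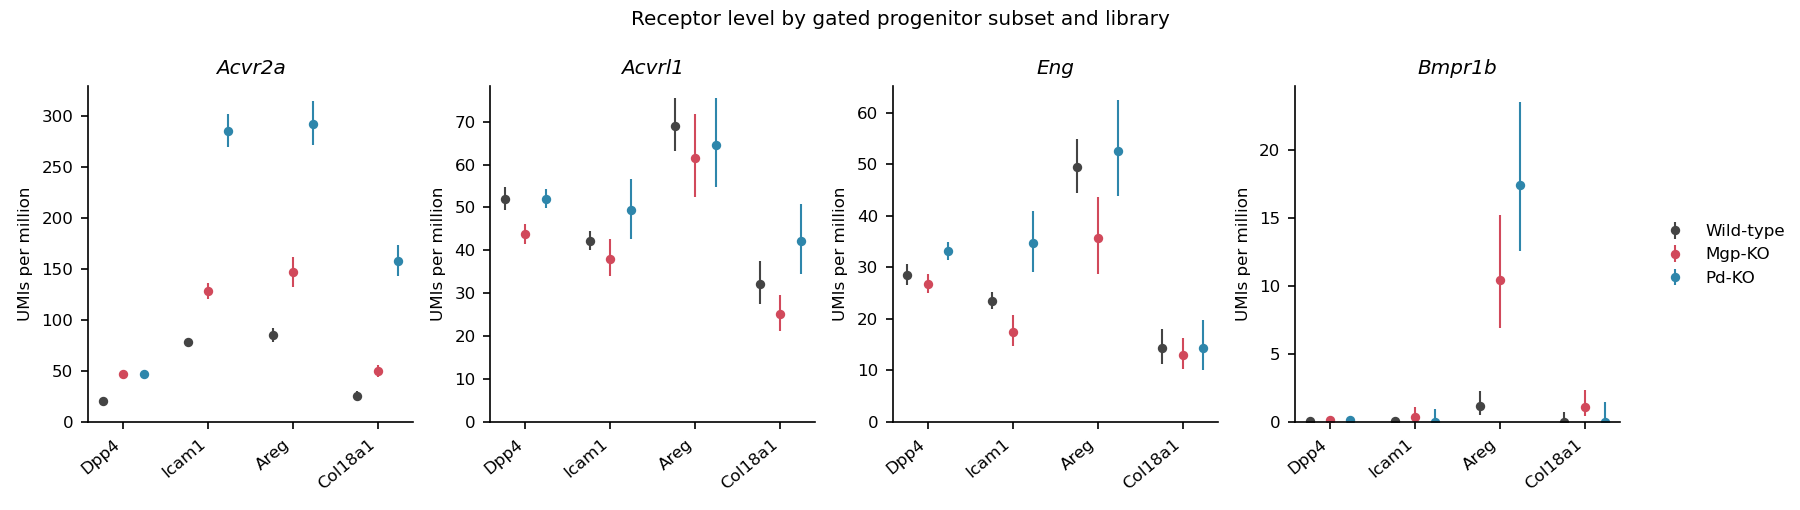
Level of *Acvr2a*, *Acvrl1*, *Eng* and *Bmpr1b* (y axis, CPM on a linear axis) in the 4 gated progenitor subsets (x axis) of the 3 libraries, with 1 point per library and bars for the exact 95% Poisson interval. *Acvr2a* is high in the Icam1 and Areg subsets and low in the Dpp4 subset, and *Eng* is highest in the Areg subset.

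The Dpp4 subset had 2 receptors called higher (*Acvrl1* 0.29, *Eng* 0.39) and 2 lower (*Acvr2a* and *Acvr2b*, the latter -1.04), where 21.4% and 19.8% of all genes were called. Both higher calls were lost under total-UMI scaling (0.13, adjusted p = 0.252, and 0.23, adjusted p = 0.0835), which moved the median of all genes to -0.16. *Acvrl1* was also lost under the stricter gate (0.10, adjusted p = 0.440), without the wild-type library (0.26, adjusted p = 0.160) and without the *Mgp*-KO library (0.31, adjusted p = 0.0746), where *Acvr2b* was lost too (-0.76, adjusted p = 0.0911). The Icam1 subset had 1 higher and 1 lower (14.6% and 11.4% of all genes), the Areg subset 3 higher and 0 lower (15.8% and 14.8%), where 0 were lower with DESeq2 too and none was lower at an unadjusted p under 0.05. The Col18a1 subset had 0 higher and 3 lower (21.3% and 21.0%), with none higher at an unadjusted p under 0.05 in edgeR and none in DESeq2, but *Acvr1* was called higher there under total-UMI scaling (0.30, adjusted p = 0.00925), which moved the median of all genes to 0.27.

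Which receptors a cell carried together was read after thinning every cell to 2000 UMIs, so that depth did not set the shares. At this depth a cell without a UMI may still carry the transcript, and intervals and limits cover counting error only. Thinning did not remove the rise of knockout ratios with genomic span that is described below. Pair shares were therefore read between types within a library, and their differences between libraries were not read as changes with genotype. Capture can differ between genes, so a leading pair is the one most often read and not a ranking of receptor amounts. *Acvrl1* with *Bmpr2* was the leading pair of a type I and a type II receptor in endothelial cells of all 3 libraries. Both were found in 44 of 774 wild-type cells (5.68%, Clopper-Pearson 95% interval 4.16% to 7.56%), in 20 of 227 *Mgp*-KO cells (8.81%, 5.46% to 13.3%) and in 57 of 679 *Pd*-KO cells (8.39%, 6.42% to 10.7%). The product of the separate shares of *Acvrl1* and *Bmpr2* was 6.15%, 7.33% and 8.56%, inside each interval. *Acvrl1* with *Eng* was found in 14.2%, 15.4% and 17.1% of endothelial cells, and all 3 of *Acvrl1*, *Bmpr2* and *Eng* in 3.49%, 4.41% and 6.19%. In progenitor cells the same 3 were found together in 0.0941%, 0.0639% and 0.162%.

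*Bmpr1a* with *Bmpr2* led in progenitor cells, in 1.55% (1.28% to 1.85%), 3.81% (3.46% to 4.18%) and 5.26% (4.74% to 5.82%) of cells. In wild-type progenitor cells *Acvrl1* with *Bmpr2* came close, in 1.44% (1.18% to 1.73%), an interval that overlaps the first. The wider lead in the knockout libraries cannot be told apart from the difference in processing versions. Endothelial cells held *Bmpr1a* with *Bmpr2* in 6, 0 and 1 cells of 774, 227 and 679, where 0 cells allows up to 1.61% by the same interval. The product of the separate shares of *Bmpr1a* and *Bmpr2* in progenitor cells was 1.54%, 3.32% and 4.64%, below the interval in both knockout libraries. *Bmpr1a* with *Bmpr2* also led in smooth muscle cells (2.64%, 2.31% and 7.14%) and pericytes (1.30%, 7.32% and 7.12%), the *Mgp*-KO values and the wild-type pericyte value from 3 cells each. In wild-type pericytes *Bmpr1a* with *Acvr2a* and *Acvrl1* with *Bmpr2* came next, in 2 cells each. *Bmpr1b* with *Bmpr2* was found in 8 of 309 *Pd*-KO pericytes (2.59%) and in 0 pericytes of the wild-type and *Mgp*-KO libraries (upper bounds 1.59% and 8.60%).

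Within progenitor cells the leading partner of *Bmpr1a* changed with the subset. In the Icam1 subset *Bmpr1a* with *Acvr2a* led in every library, in 1.64% (1.12% to 2.31%), 4.15% (3.02% to 5.55%) and 7.29% (5.04% to 10.1%) of cells, against 1.28%, 3.38% and 4.10% for *Bmpr1a* with *Bmpr2*. The Dpp4 subset had the reverse order, with *Bmpr1a* and *Bmpr2* in 2.12% (1.53% to 2.87%), 3.61% (3.07% to 4.21%) and 5.52% (4.84% to 6.27%) and *Bmpr1a* with *Acvr2a* in 0.569%, 1.35% and 1.92%. In the Dpp4 subset these intervals did not overlap those of *Bmpr1a* with *Acvr2a*, whereas in the Icam1 subset they did. The wild-type Icam1 subset had 2 *Acvrl1* pairs close behind its leading pair, in 29 and 27 cells against 32. These were *Acvrl1* with *Bmpr2* (1.48%, 0.997% to 2.13%) and *Acvrl1* with *Acvr2a* (1.38%, 0.913% to 2.01%), whose intervals overlapped that of the leading pair. The Areg subset had a different leading pair in each library: *Acvrl1* with *Bmpr2* in wild-type (2.85%), *Acvr1* with *Acvr2a* in *Mgp*-KO (3.69%) and *Bmpr1a* with *Acvr2a* in *Pd*-KO (8.19%). Their intervals overlapped those of the pair that came next in that library. Between wild-type and either knockout library, a change of leading pair cannot be told apart from the difference in processing versions. Both knockout files name the same version, but the *Mgp*-KO lead was narrow. There *Acvr1* with *Acvr2a* stood in 19 of 515 Areg cells and *Bmpr1a* with *Acvr2a* in 17.

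**Figure D3:**
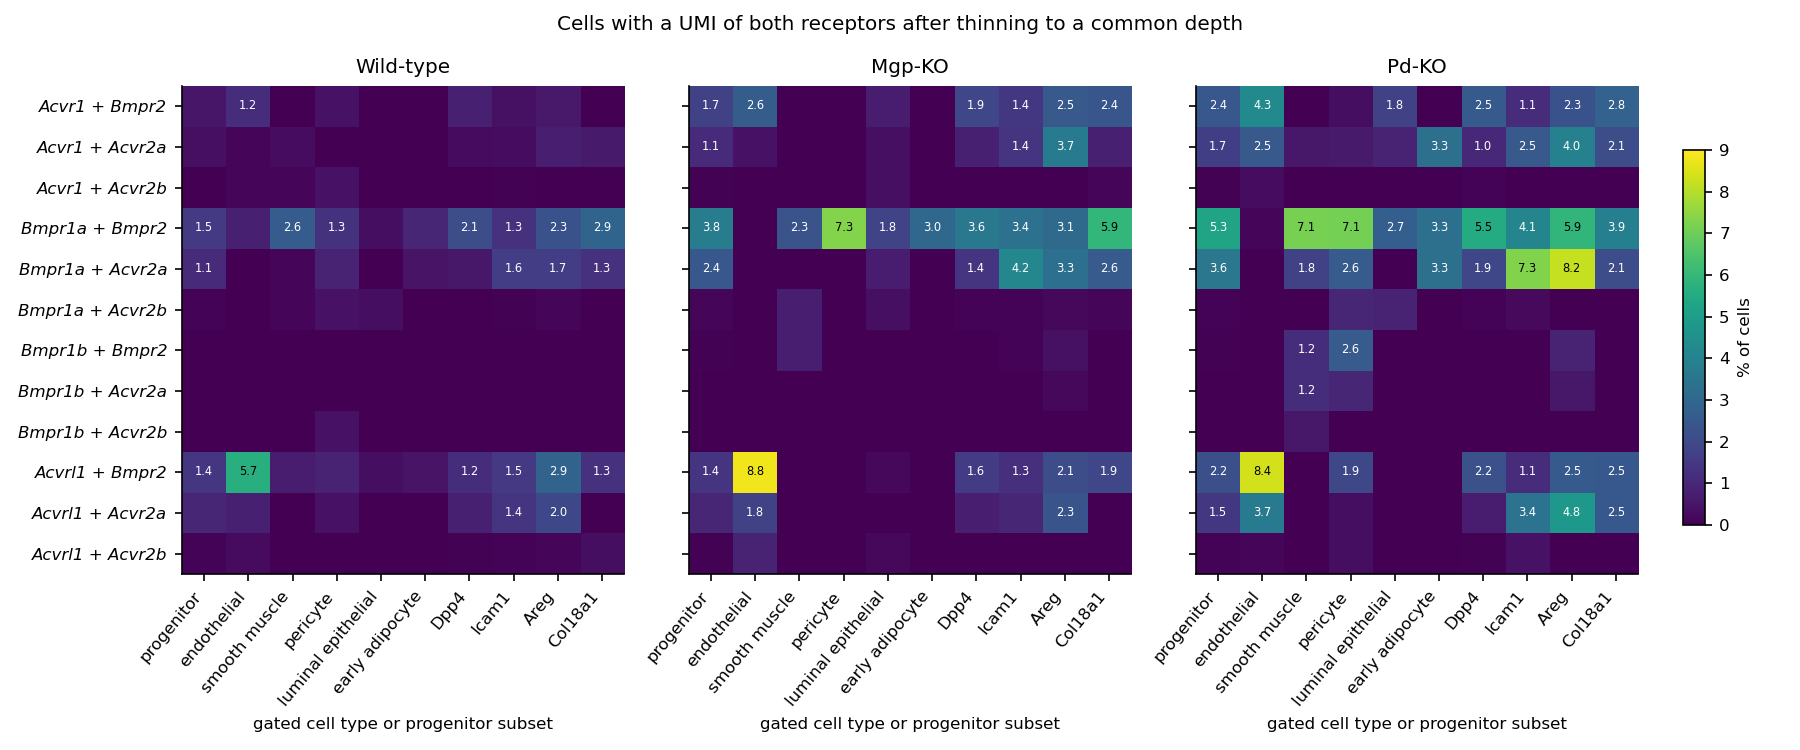
Share of cells (colour, in percent, from 0 to 9) that held at least 1 UMI of both members of a receptor pair (rows) after thinning to 2000 UMIs, by cell type and progenitor subset (columns) and library (panels). Numbers are printed at 1% and above. *Acvrl1* with *Bmpr2* leads in endothelial cells. *Bmpr1a* with *Bmpr2* leads in progenitor cells, by little in wild-type. In the Icam1 subset *Bmpr1a* with *Acvr2a* leads, with an interval that overlaps that of the next pair in every library.

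The shares behind these pairs can be set beside those of other types, none of which is known here to lack the gene. *Eng* had a UMI in 59.2%, 57.7% and 67.3% of endothelial cells after thinning, against 6.62%, 5.32% and 7.14% of luminal cells and 5.56%, 3.98% and 5.91% of progenitor cells, so the progenitor share was no higher than the luminal share. *Acvrl1* had one in 21.8%, 28.2% and 24.7% of endothelial cells and in 9.03%, 7.65% and 9.93% of progenitor cells, against 1.66%, 1.28% and 0.893% of luminal cells, so the progenitor share was above the luminal share. *Bmpr1a* had one in 10.7%, 16.3% and 19.8% of progenitor cells against 2.33%, 1.76% and 0.442% of endothelial cells. Before thinning, median depth was 5981, 3232 and 3886 UMIs in endothelial cells, 14068.5, 6470 and 9223.5 in progenitor cells and 21104.5, 8662 and 10584.5 in luminal cells, and *Eng* had a UMI in 86.6%, 76.2% and 84.2% of endothelial cells and 26.4%, 13.1% and 22.3% of progenitor cells.

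As a share of all UMIs of the 4 type I receptors, *Acvrl1* made up 79.8%, 76.4% and 71.1% in endothelial cells and 37.8%, 21.7% and 23.2% in progenitor cells. *Bmpr1a* made up 4.84%, 6.18% and 2.15% in endothelial cells and 46.9%, 55.0% and 51.6% in progenitor cells. It made up 68.4% to 81.2% over early adipocytes, luminal cells and smooth muscle cells, and 66.8%, 73.7% and 55.5% in pericytes. Of the UMIs of the 3 type II receptors, *Bmpr2* made up 83.5%, 71.5% and 72.5% in endothelial cells. *Acvr2a* made up 53.5%, 51.0% and 69.4% in the Icam1 subset against 19.1%, 27.0% and 24.1% in the Dpp4 subset. 3′ capture can differ between genes, so these shares were read between types and not as receptor ratios.

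A list of 52 other genes of the pathway (ligands, inhibitors, co-receptors, SMADs and targets) was tested with the same fit, and 42 passed the filter in the types and 41 in the subsets. In endothelial cells 11 of the 42 were higher and 17 lower, beside 22.6% and 26.8% of all genes (median log2 difference -0.54, against -0.05 over all genes). The inhibitory SMADs *Smad6* (1.37) and *Smad7* (1.44) and the pseudoreceptor *Bambi* (2.74) were higher, and the co-receptors *Rgma* (-3.66), *Rgmb* (-0.88) and *Tgfbr3* (-0.84) lower. *Rgmb* and *Tgfbr3* were called lower than in progenitor cells in every other type too. In smooth muscle cells, pericytes, luminal cells and early adipocytes *Rgmb* was at -1.59, -2.06, -1.61 and -1.90. *Tgfbr3* was at -1.78, -1.59, -4.25 and -0.88 there. *Rgma* was also lower in luminal cells (-1.75) and early adipocytes (-1.46). In the Areg subset 17 of 41 were higher and 12 lower, beside 15.8% and 14.8% of all genes, with a median of 0.03 against -0.04 over all genes. *Bambi* (1.14), *Smad6* (0.90) and *Smad7* (0.64) were among the higher and the TGFβ receptor *Tgfbr1* (-1.20) among the lower genes.

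Counts higher and lower in the other types were 12 and 16 in smooth muscle cells (18.7% and 22.6% of all genes, list median -0.18), 9 and 16 in pericytes (16.0% and 21.0%, -0.54), 6 and 29 in luminal cells (29.2% and 32.2%, -1.22) and 1 and 22 in early adipocytes (21.3% and 21.0%, -0.97). Luminal cells had less *Tgfbr3* (-4.25) and *Bambi* (-1.73) and more *Acvr1b* (0.85), the activin type I receptor ALK4. *Tgfbr1* was lower in smooth muscle cells (-1.36), pericytes (-1.02), luminal cells (-0.78) and early adipocytes (-0.81). Among subsets they were 14 and 12 in the Dpp4 subset (21.4% and 19.8%, -0.03), 5 and 19 in the Icam1 subset (14.6% and 11.4%, -0.42) and 9 and 15 in the Col18a1 subset (21.3% and 21.0%, -0.24). In the Dpp4 subset *Tgfbr3* (0.83) and *Rgmb* (0.60) were higher and *Rgma* (-0.58) lower. The Icam1 subset had more *Acvr1b* (0.54) and less *Rgma* (-0.65) and *Rgmb* (-0.32). *Rgma* (1.68) and *Tgfbr1* (1.12) were higher in the Col18a1 subset.

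The *Id* genes, known targets of BMP signalling, did not move as a group. In endothelial cells *Id1* (4.63) and *Id3* (1.65) were higher and *Id2* (-0.62) lower. In pericytes *Id1* (2.06) and *Id3* (0.65) were higher and *Id2* (-1.17) lower, and in smooth muscle cells *Id1* (2.67) and *Id3* (1.44) were higher while *Id2* (-0.24) was not called. Early adipocytes had more *Id1* (1.77) and less *Id2* (-1.11), with *Id3* at -0.44 and not called. Luminal cells had less *Id1* (-1.91) and *Id2* (-0.77), with *Id3* at 0.36 and not called. Among subsets, Areg cells had more *Id2* (0.85) and *Id3* (1.03) and Dpp4 cells less *Id1* (-1.41), whereas Col18a1 cells had more *Id1* (1.60) and less *Id2* (-0.56) and *Id3* (-0.48). *Id4*, added after its values were seen, was higher in smooth muscle cells (3.58), pericytes (4.63) and the Areg subset (3.44) and lower in luminal cells (-1.74) and the Col18a1 subset (-2.39).

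The genes whose levels ran most like each receptor were found by Pearson's r over the 18 combinations of 6 types and 3 libraries, on log2(CPM + 1), among 10438 genes. The points share libraries, so r is a description. They included *Eps15* and *Rabep1* for *Acvr1* (0.91 and 0.89), *Wdr35*, *Anxa1* and *Ryk* for *Bmpr1a* (0.95, 0.94 and 0.93), *Frem2*, *Lin7a* and *Pde5a* for *Bmpr1b* (0.95, 0.94 and 0.93) and *Pea15a*, *Plcg1* and *Irf7* for *Acvrl1* (0.93, 0.93 and 0.92). For the type II receptors they were *Sptan1*, *Nuak1* and *Dop1a* with *Bmpr2* (0.93, 0.91 and 0.90), *Grb10*, *Zfp521* and *Tgfbr3* with *Acvr2a* (0.94, 0.91 and 0.90) and *Fam53b*, *Net1* and *Arap2* with *Acvr2b* (0.97, 0.94 and 0.94). *Eng* had *Tnfaip1*, *Lbr* and *Taok2* (0.96, 0.96 and 0.95).

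The last question was how the receptors differed between genotypes within a cell type. With 1 library per genotype there is no test, and log2 ratios of CPM are given with exact conditional binomial 95% intervals for counting error. The 2 comparisons share the wild-type library. Genes of at least 100 UMIs over both libraries were counted, and one past 1.5-fold is called. In progenitor cells of the *Mgp*-KO library *Acvr1* was higher by 1.14 (1.06 to 1.22), *Bmpr1a* by 0.77 (0.72 to 0.82), *Bmpr2* by 0.74 (0.70 to 0.78) and *Acvr2a* by 0.48 (0.43 to 0.54). *Acvrl1* (-0.26, -0.32 to -0.19) and *Eng* (-0.22, -0.30 to -0.13) were slightly lower, and the interval of *Acvr2b* held 0. In *Pd*-KO progenitor cells the ratios were 1.58 (1.502 to 1.66) for *Acvr1*, 1.01 (0.96 to 1.06) for *Bmpr1a*, 0.90 (0.86 to 0.95) for *Bmpr2*, 1.05 (1.00 to 1.10) for *Acvr2a*, 0.16 for *Acvrl1* and 0.30 for *Eng*. Past 1.5-fold, 3 of 7 receptors were higher in *Mgp*-KO and 4 of 7 in *Pd*-KO, with 0 lower. Over all genes 27.8% were higher and 7.78% lower in *Mgp*-KO, and 31.9% and 12.5% in *Pd*-KO.

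In both knockout libraries the ratio rose with the length of the gene in the genome. Spearman's rho between genomic span and ratio was 0.56 over 14071 genes (*Mgp*-KO) and 0.58 over 13903 genes (*Pd*-KO) in progenitor cells, as a description across genes that are not independent. The median ratio of the longest 10% of genes was 1.58 and 1.82, against 0.14 and 0.18 over all genes. The receptors that were higher are the long ones. On the GRCm38 annotation *Acvr1* spans 179 kb (chr2:58388644-58567157), *Bmpr2* 116 kb (chr1:59763400-59879014), *Bmpr1a* 92.6 kb (chr14:34410734-34503341) and *Acvr2a* 89.2 kb (chr2:48814109-48903269), while *Eng* spans 36.1 kb, *Acvr2b* 32.9 kb and *Acvrl1* 16.8 kb. *Bmpr1b* is the longest, at 332 kb.

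**Figure D4:**
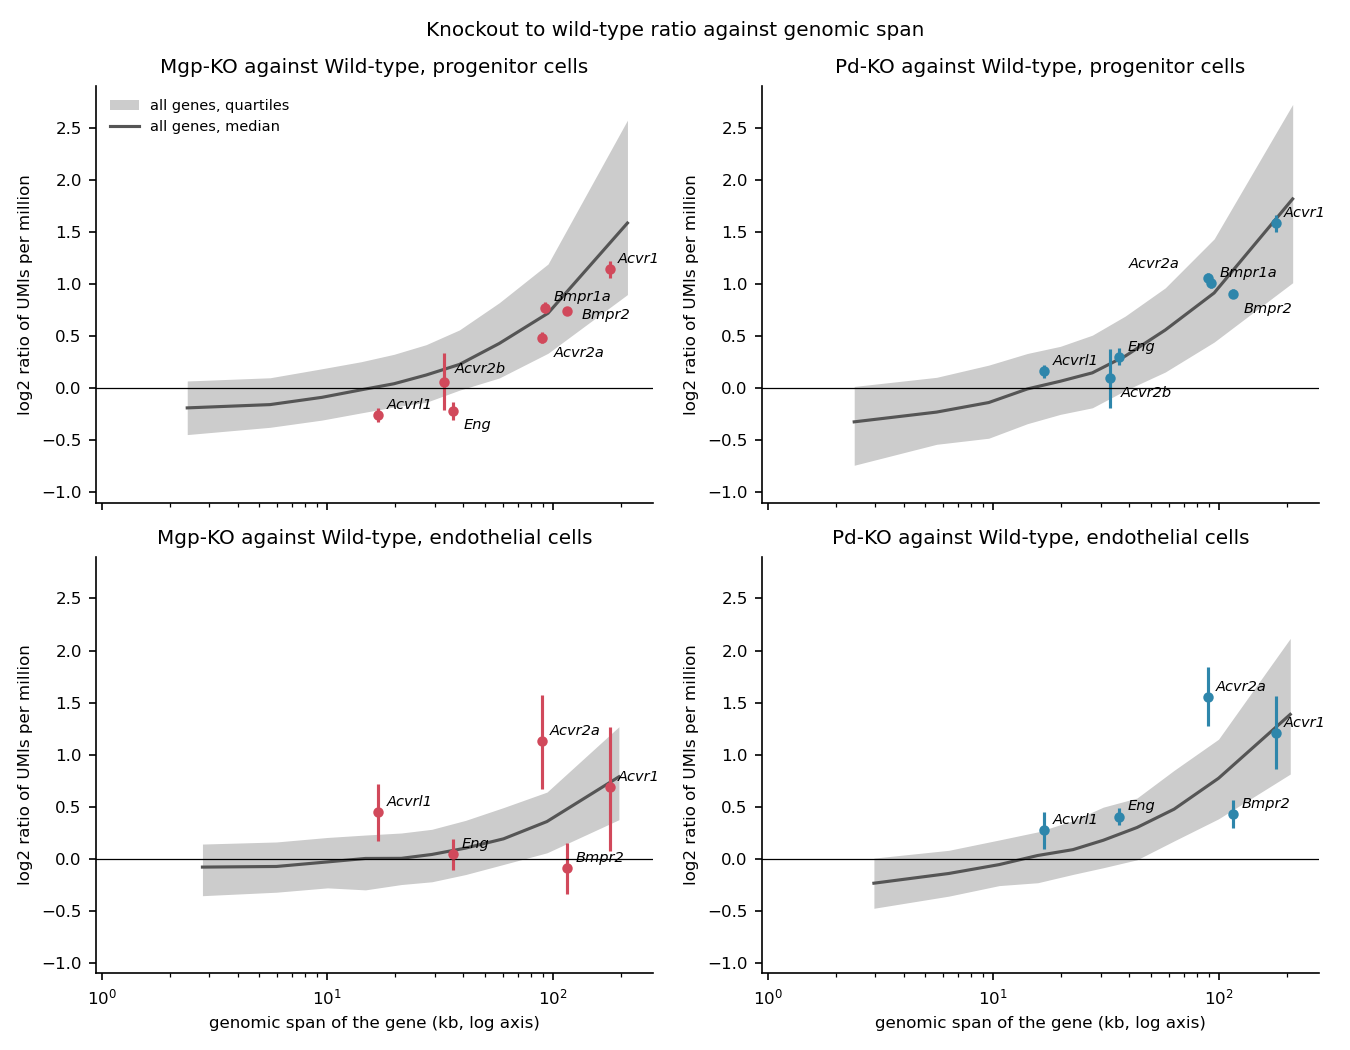
Log2 ratio of CPM, knockout against wild-type (y axis), against the genomic span of the gene in kb (x axis, log scale), in progenitor and endothelial cells. The grey line and band are the median and quartiles of all genes in 10 bins of span, and points are receptors of at least 100 UMIs with exact 95% intervals. In progenitor cells *Acvr1*, *Bmpr1a*, *Bmpr2* and *Acvr2a* lie within the band and *Eng* below it in *Mgp*-KO (-0.22). In endothelial cells of both knockout libraries *Acvr2a* lies above the band and *Bmpr2* below it.

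Each ratio was therefore also set against the median of the 200 tested genes nearest in span. In progenitor cells 0 of 7 receptors were then past 1.5-fold in either knockout library, where 26.9% (*Mgp*-KO) and 34.4% (*Pd*-KO) of all genes were. *Acvr1* moved to -0.32 and -0.05, *Bmpr1a* to 0.07 and 0.07, and *Bmpr2* to -0.18 and -0.20. *Acvr2a* moved to -0.15 and 0.22. The largest centred value was that of *Eng* in *Mgp*-KO, at -0.43 (-0.52 to -0.35).

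In endothelial cells *Acvr2a* was higher by 1.13 (0.67 to 1.57) in *Mgp*-KO and by 1.56 (1.27 to 1.84) in *Pd*-KO, from 168, 57 and 274 UMIs. Centred on genes of like span the ratios were 0.76 (0.30 to 1.20) and 0.89 (0.60 to 1.17). *Acvr1* was past 1.5-fold too before centring (0.69, 0.07 to 1.27, and 1.21, 0.86 to 1.56) and stood at 0.00 and 0.09 after it. In *Mgp*-KO it stood at 0.56, under 1.5-fold, among cells of at most 5% mitochondrial UMIs. Thus 2 of 5 receptors were past 1.5-fold, all higher, in each knockout library, and 1 of 5 after centring. Over all genes 15.8% were higher and 8.72% lower in *Mgp*-KO (18.6% in either direction after centring) and 26.2% and 6.70% in *Pd*-KO (21.8% after centring). The centred count of 1 of 5 was near the share over all genes, so it was not read as a result about the receptors. Free RNA carried *Acvr2a* at 15.7, 63.3 and 156 CPM, in the same order as endothelial cells. With 10% of the UMIs taken as free RNA and subtracted, the endothelial *Acvr2a* ratios were 1.06 and 1.33.

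The ratios of *Eng*, *Acvrl1* and *Bmpr2* in endothelial cells were smaller. *Eng* stood at 0.04 (-0.10 to 0.19) in *Mgp*-KO and 0.41 (0.32 to 0.49) in *Pd*-KO, and at -0.05 and 0.16 after centring. *Acvrl1* stood at 0.45 (0.17 to 0.72) and 0.27 (0.10 to 0.45), with almost no change after centring (0.45 and 0.25). *Bmpr2* stood at -0.09 (-0.34 to 0.15) and 0.43 (0.30 to 0.56). After centring it stood at -0.53 (-0.78 to -0.29) and -0.46 (-0.59 to -0.33), below genes of like span in both.

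The centred *Acvr2a* ratio was also read within the progenitor subsets. In *Pd*-KO it was 0.97 (0.87 to 1.07) in the Icam1 subset, 0.97 (0.81 to 1.13) in the Areg subset and 1.80 (1.51 to 2.10) in the Col18a1 subset, but 0.39 (0.25 to 0.52) in the Dpp4 subset. In *Mgp*-KO the values were -0.02, 0.32, 0.31 and 0.63 in the same order. Centred *Bmpr1a* was at 0.45 (0.23 to 0.66) in *Mgp*-KO and 0.54 (0.30 to 0.78) in *Pd*-KO in the Col18a1 subset. In the other subsets the *Bmpr1a* intervals covered both signs. No share over all genes is given for the subsets. Over all *Pd*-KO progenitor cells 34.4% of genes were past 1.5-fold after centring. Free RNA also carried more *Acvr2a* in both knockout libraries than in wild-type, and ratios with it subtracted are not given for the subsets. The Dpp4 subset, low in *Acvr2a*, held more of the progenitor cells in both knockout libraries (4291 and 4058 cells against 1932), and the Icam1 subset fewer (1036 and 439 against 1953). Among cells of at least 5000 UMIs the Dpp4 subset held 1797, 3341 and 3732 cells and the Icam1 subset 1917, 898 and 414. The gates ask for a number of detected markers and depth differed between libraries, and the part of depth in the subset sizes was not tested. With the 4 subsets weighted as in the wild-type library, a setting chosen after seeing the data, the uncentred *Acvr2a* ratio over the subsets rose from 0.33 to 0.82 in *Mgp*-KO and from 0.66 to 1.81 in *Pd*-KO. For *Acvr1*, *Bmpr1a*, *Acvrl1*, *Bmpr2* and *Eng* the same weighting left ratios between -0.28 and 1.54. *Acvr2b* and *Bmpr1b*, both on few UMIs, moved as well. *Acvr2b* went from -0.15 to 0.25 in *Mgp*-KO and from 0.03 to 0.54 in *Pd*-KO. *Bmpr1b* went from 2.30 to 2.97 and from 2.45 to 3.38.

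**Figure D5:**
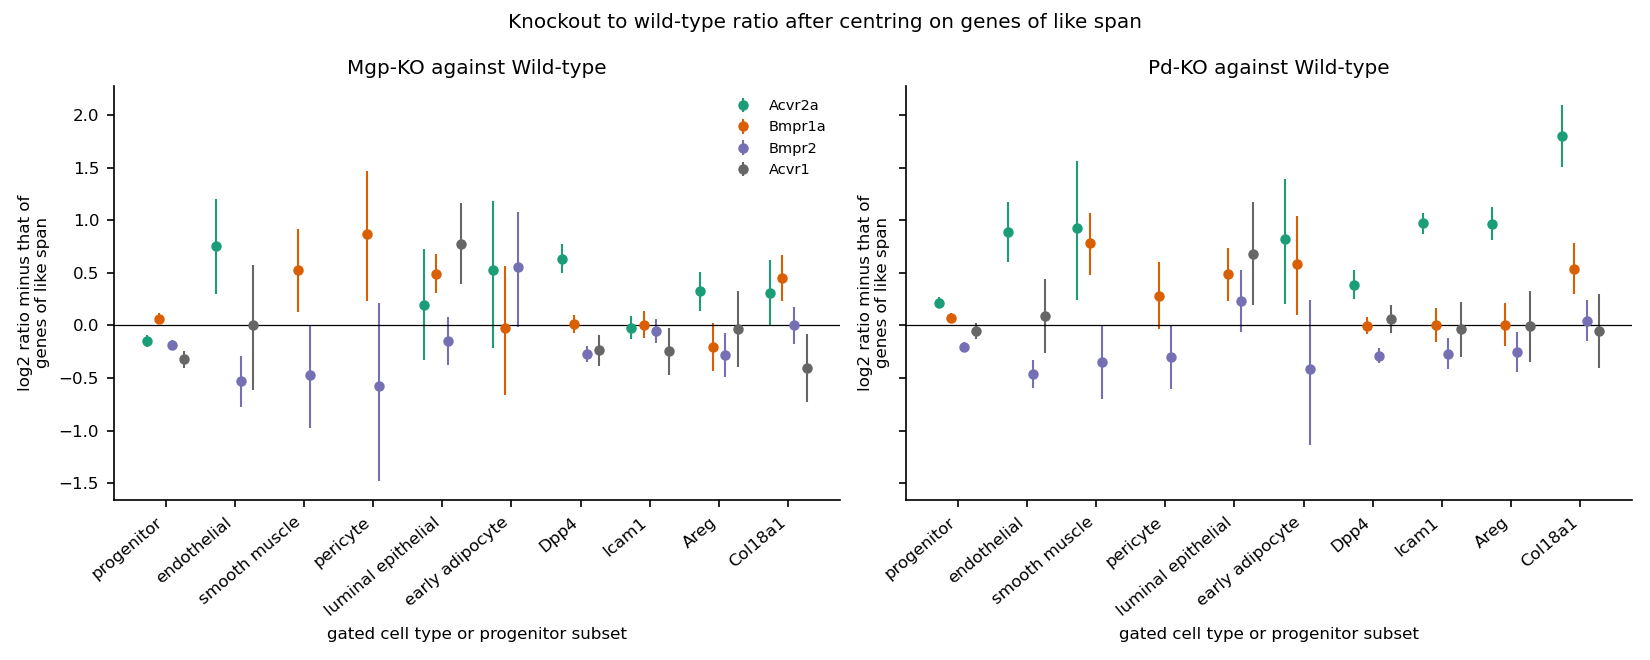
Log2 ratio of knockout to wild-type CPM, centred on the 200 genes nearest in genomic span (y axis), for *Acvr2a*, *Bmpr1a*, *Bmpr2* and *Acvr1* in each cell type and subset (x axis) where both libraries together held at least 100 UMIs, with exact 95% intervals for counting error. *Acvr2a* lies near 1 in the Icam1 and Areg subsets of *Pd*-KO, and the progenitor values of these 4 receptors lie between -0.32 and 0.22.

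In the smaller types the counts were lower. In *Pd*-KO smooth muscle cells *Eng* (0.99, 0.46 to 1.496), *Acvr2a* (0.92, 0.24 to 1.57) and *Bmpr1a* (0.78, 0.48 to 1.07) were higher after centring. So were *Acvr2a* (0.82, 0.21 to 1.40) and *Bmpr1a* (0.59, 0.10 to 1.04) in *Pd*-KO early adipocytes and *Bmpr1a* in *Mgp*-KO pericytes (0.87, 0.23 to 1.47). *Bmpr1a* in *Mgp*-KO smooth muscle cells was at 0.53 (0.12 to 0.92), under 1.5-fold. The *Acvr2a* values rest on 28 against 74 UMIs in smooth muscle cells and 30 against 153 in early adipocytes (*Pd*-KO against wild-type). Free RNA also carried more *Acvr2a* in *Pd*-KO than in wild-type, and values with it subtracted are not given for these types. *Acvrl1* in *Mgp*-KO smooth muscle cells was at -0.92, with an interval that held 0 (-2.40 to 0.25). Lower after centring were *Eng* in *Mgp*-KO luminal cells (-0.55, -0.88 to -0.23) and *Bmpr2* in smooth muscle cells. *Bmpr2* was there at -0.47 (-0.98 to -0.006) in *Mgp*-KO and -0.34 (-0.70 to -0.005) in *Pd*-KO. No share over all genes is given beside the values of these smaller types. *Bmpr1b* in *Pd*-KO pericytes was higher than in wild-type by 3.86 (2.83 to 5.11), from 106 against 8 UMIs, and by 2.01 (0.98 to 3.26) after centring. Summed smooth muscle markers in these pericytes were 3943 against 8625 CPM in wild-type, and their part in that ratio was not tested. *Acvr1* in luminal cells was higher by 2.01 (1.63 to 2.40) in *Mgp*-KO and 2.32 (1.83 to 2.81) in *Pd*-KO, and by 0.77 (0.39 to 1.16) and 0.68 (0.19 to 1.17) after centring. *Bmpr1a* in luminal cells was at 1.22 and 1.51 before centring and at 0.49 (0.31 to 0.68) and 0.48 (0.23 to 0.74) after it. *Bmpr1a*, *Acvrl1*, *Acvr2a*, *Acvr2b* and *Eng* each overlap a gene on the opposite strand that is in the tables (*Gm17110*, *Gm16031*, *Orc4*, *Gm47320* and *Fpgs*), and whether strand was used in counting is not given in the sources used here.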

How the data were processed

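Single-cell RNA was captured with 10x 3′ v3 chemistry from CD45-depleted live SVF cells, in 3 libraries. For each library the authors deposited a matrix of UMI counts, unnormalized, by gene and barcode. The labels name Cell Ranger 6.1.1 and GRCm39, the count file headers name Cell Ranger 4 (wild-type) and 7.1.0 (both knockout libraries), and the study's methods name mm10 and default settings of 6.1.1. As these differ, which intron setting made each matrix is not known. Barcodes of at least 2000 UMIs and at most 10% mitochondrial UMIs were kept. Total depth was 184102026, 93212243 and 83942865 UMIs.

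Cells were gated by a minimum number of markers and of marker UMIs per 10000, with thresholds set after marker distributions were seen. Cells that passed both a smooth muscle and a basal gate went to the latter, those that passed a progenitor and an early adipocyte gate to the latter, and those of both mural gates to the one passed by the wider margin. Other cells of more than 1 gate (270, 124 and 161) were left out, and no doublet caller was run. The members and gene lists were chosen with earlier results of these data known. Types and subsets with at least 20 cells in each library were fitted with edgeR 4.0.16 (quasi-likelihood, TMM, library as a block) in R 4.3.3, tested on simulated data, with DESeq2 1.42.0 as an alternative. The 3 genotypes stand as the replicates of a cell type there, and between genotypes there is no test. Genes named in the text were the 8 receptors, fixed genes of the pathway list and the 3 genes most like each receptor among those reaching 20 CPM, of which 1 is not reported here. Other alternatives were total-UMI scaling, no filter, DESeq2 size factors, no block, deeper cells, a stricter gate (1 more marker and 2 times the UMIs), fewer mitochondrial UMIs, free-RNA subtraction, equal cell weights and each library left out. Spans came from the GRCm38 annotation and gene starts from RefSeq. Python 3.11.15, scipy 1.17.1 and matplotlib 3.10.9 were used for the rest.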

Additional observations from a re-analysis of the deposited data

Results flagged for a closer look

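Before centring on genes of like span, the receptors below had ratios on opposite sides of 0 in the samples compared, with intervals that left 0 out. Each difference rests on 1 library per genotype and was not tested, and the 2 knockout comparisons share the wild-type library. *Acvrl1* in *Mgp*-KO was higher than wild-type in endothelial cells (log2 ratio 0.45) and lower in progenitor cells (-0.26), a difference of 0.71. In progenitor cells *Acvrl1* was lower in *Mgp*-KO and higher in *Pd*-KO (0.16), a difference of 0.42. *Eng* in progenitor cells was at -0.22 in *Mgp*-KO and 0.30 in *Pd*-KO, a difference of 0.52. After centring these were -0.43 and -0.02 (-0.10 to 0.06), so the opposite directions were lost. In the Icam1 subset *Eng* was at -0.42 and 0.56, a difference of 0.98, and after centring at -0.63 and 0.16 (-0.11 to 0.43), where the *Pd*-KO interval held 0. *Acvrl1* in the Col18a1 subset was at -0.36 and 0.39, a difference of 0.75. After centring, the *Acvrl1* ratios kept their signs with intervals that left 0 out, at 0.45 and -0.22 (*Mgp*-KO endothelial and progenitor cells), 0.19 (*Pd*-KO progenitor cells), and -0.35 and 0.48 (Col18a1 subset).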

How the results depend on the processing

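Among alternative values of the main counts and pair shares, 98 stayed within their limits and 25 moved. Among single receptors, 332 alternative values of the type differences kept direction and call, 28 lost the call, 2 gained it and 14 reversed (173, 9, 4 and 6 among subsets), and none of the reversed type or subset differences had been called. Of the genotype ratios, 125 alternative values moved by less than their interval, 53 moved by more and 4 reversed. Reversal was counted there only for ratios past 1.5-fold, so other changes of sign stand among the 125 and 53. Centring on genes of like span took *Acvr2a* in *Mgp*-KO progenitor cells from 0.48 to -0.15, for example. It took *Bmpr2* in *Pd*-KO endothelial cells from 0.43 to -0.46. Under total-UMI scaling *Acvr1* in endothelial cells was at 0.0068, *Bmpr2* in pericytes at 0.035, *Eng* in luminal cells at 0.17, and *Bmpr1a* and *Bmpr2* in the Col18a1 subset at 0.037 and 0.21. The stricter gate gave *Eng* -0.025 in smooth muscle cells, *Bmpr1a* -0.046 in luminal cells, and *Bmpr1a* 0.12 and *Bmpr2* 0.073 in the Col18a1 subset. *Eng* in luminal cells was at 0.054 with DESeq2, 0.053 with its size factors and 0.030 in cells of at least 5000 UMIs, where *Bmpr1b* in endothelial cells was at 0.039. *Bmpr1a* in luminal cells was at -0.12 without a filter. Leaving out 1 library gave -0.17 to 0.30 for *Eng* in smooth muscle cells, -0.040 to 0.10 for *Bmpr1a* and -0.12 to 0.030 for *Eng* in luminal cells, and -0.048 to 0.13 for *Bmpr2* in the Areg subset. For *Bmpr2* in the Col18a1 subset the range was -0.11 to 0.055.

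Calls in luminal cells went from 5 to 3 under the stricter gate and to 3 without any 1 library. Those in the Dpp4 subset went from 4 to 2 (total-UMI scaling), 7 (no filter) and 2 (stricter gate), and ran from 2 to 4 with a library left out, with *Bmpr1b* tested and counted without a filter and without the wild-type library. Centring on genes of like span left 0 receptors past 1.5-fold in progenitor cells of *Mgp*-KO and 0 in *Pd*-KO, and 1 and 1 in endothelial cells. There *Acvr1* was at -0.32 and -0.051 and *Bmpr2* at -0.18 and -0.20 in progenitor cells. At most 5% mitochondrial UMIs left 1 in *Mgp*-KO endothelial cells. Shares with both receptors depend on depth. *Acvrl1* with *Bmpr2* in endothelial cells was found in 33.2%, 22.5% and 26.7% without thinning and in 23.8%, 36.6% and 30.8% at 5000 UMIs, and *Bmpr1a* with *Bmpr2* in progenitor cells in 34.8%, 24.9% and 40.8%, and in 7.88%, 17.2% and 20.3%. Other causes were not tested. Pericytes and early adipocytes could not be fitted under the stricter gate, nor pericytes at 5000 UMIs, with under 20 cells in a library. The fits between types and between subsets compare cells within each library. Between genotypes no pairing exists, and no paired analysis was possible there because each genotype has 1 library.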

Other observations

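Gates with under 20 cells in a library were given no test. In basal epithelial cells (34, 137 and 19) *Acvr1* stood at 22.7, 116 and 71.7 CPM, *Bmpr1a* at 55.4, 128 and 173 and *Bmpr2* at 83.1, 135 and 233, while this gate also held smooth muscle markers at a summed 21936, 21143 and 12396. *Acvr2a* had 10, 65 and 20 UMIs of 397061, 834149 and 167318 there. That is below the progenitor level in wild-type and slightly above it in both knockout libraries, an excess that was not set against counting error. Schwann cells (138, 14 and 43) held *Bmpr1a* at 69.9, 217 and 115 and *Bmpr2* at 97.1, 177 and 101. Neurons were gated in the wild-type library alone (89 cells), with *Bmpr2* at 217 and *Bmpr1a* at 66.2 CPM.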
